A study of Mus musculus with 16 samples.

Results

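Serpins are protease inhibitors that trap their target enzyme by a large change of shape, and the liver releases several of them into plasma. The regions described here are the DNase hypersensitive sites (DHS), stretches of open chromatin cut readily by DNase I, around 10 serpin genes of the Serpina cluster of mouse chromosome 12: Serpina6, Serpina1b, Serpina1d, Serpina1a, Serpina1c, Serpina1e, Serpina3c, Serpina3k, Serpina3m and Serpina3n. A DHS belonged to a gene when it lay within the gene or within 20 kb of it in the mouse assembly mm9. Peaks of the 4 lists sharing 1 bp or more were merged to form 1 region. There were 28 such regions among 51482 in the whole genome, and they are numbered r1 to r28 along the chromosome.

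DNase-seq was performed on purified liver nuclei of male and female mice of 2 inbred strains. C57BL/6J (B6) is the strain of the mouse reference genome. CAST/EiJ (CAST) descends from wild-caught mice of a different subspecies. The mice were untreated, carried no engineered allele and were 8 weeks old per the labels, and the nuclei of every group were digested with 32 units of DNase I. The 4 groups (male B6, female B6, male CAST, female CAST) had 4 libraries each, 16 in all, and the study pooled them before calling peaks, so that a group is 1 list, no spread between replicates can be given and no test was possible. The comparison of sexes within a strain, and of strains within a sex, addresses which regulatory elements differ by sex or by genetic background.

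The fold enrichment of a peak is the number of reads stacked at its summit divided by the local background that the peak caller set, with 1 added to each. Summit reads and background were recovered from the deposited values. The genome-wide background of a list, the lowest the peak caller used, was 15.4 and 13.9 reads in male and female B6 and 14.3 and 7.94 reads in male and female CAST, so a peak in female CAST needed a fold enrichment of at least 2.24 to be listed at that background, against 1.90 to 1.94 in the other lists. Starts of 4 or 5 of the 5 hepatocyte marker genes held a DHS in each list, and those of Kupffer, stellate, bile duct and lymphoid cells in 0 of 13 in any list. Starts of sinusoidal endothelial markers held one in 4 and 2 of 4 in male and female B6 and in 1 of 4 in each CAST list, and the part of this in the results was not tested. In bulk nuclei, fewer cells of a type and less open chromatin per cell cannot be told apart.

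The 10 genes fall into 3 kinds. Serpina1a to Serpina1e encode forms of alpha-1 antitrypsin, the main plasma inhibitor of neutrophil elastase. Serpina3c, Serpina3k, Serpina3m and Serpina3n belong to the alpha-1 antichymotrypsin family, which expanded in rodents. Serpina3n is induced in the acute phase response, and Serpina3k is known as the kallikrein-binding protein. Serpina6 encodes corticosteroid-binding globulin, the plasma carrier of glucocorticoids, which is a serpin by descent but not an inhibitor. Liver transcription of such genes rests on the factors HNF1, HNF4, FOXA and C/EBP, and sex differences in mouse liver depend largely on growth hormone acting through STAT5.

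Because the genes are copies of each other, their sequences bear on what reads could be placed. Coding sequences of the 5 Serpina1 genes were 96.3% to 98.5% identical in pairs. Those of the 4 Serpina3 genes were 82.6% to 90.9% identical, and Serpina6 was 55.9% to 58.9% identical to the others. The 100 bases around the letters GTTAAT, the core of the HNF1 motif, are shown for the 5 Serpina1 promoters to make the likeness visible, in mm9 on the minus strand on which these genes lie, with that core in capitals:
Serpina1b, chr12:104976382-104976481: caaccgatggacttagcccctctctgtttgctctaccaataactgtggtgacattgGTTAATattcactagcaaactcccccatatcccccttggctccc
Serpina1d, chr12:105011816-105011915: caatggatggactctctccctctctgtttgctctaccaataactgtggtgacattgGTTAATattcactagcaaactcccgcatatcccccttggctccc
Serpina1a, chr12:105101807-105101906: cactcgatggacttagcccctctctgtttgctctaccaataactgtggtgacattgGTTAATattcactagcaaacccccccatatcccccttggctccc
Serpina1c, chr12:105143144-105143243: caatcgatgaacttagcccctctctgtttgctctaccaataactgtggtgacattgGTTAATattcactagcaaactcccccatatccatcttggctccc
Serpina1e, chr12:105195142-105195241: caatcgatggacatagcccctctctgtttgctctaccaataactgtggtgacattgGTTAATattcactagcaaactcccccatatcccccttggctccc
Of the 100 positions, 87 were the same in all 5 genes. Pairs differed at 2 to 9 positions, the fewest between Serpina1b and Serpina1e and the most between Serpina1d and Serpina1c.

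No DHS was listed within 20 kb of Serpina1b, Serpina1d, Serpina1a, Serpina1c or Serpina3c in any list. These are 5 of the 10 genes, against 25.1% of 22380 protein-coding genes. The nearest DHS of any list lay 31742 bp from a start of Serpina1b, 67176 bp from Serpina1d, 71175 bp from Serpina1a and 32152 bp from Serpina1c. For Serpina3c it lay 45032 bp away. Of these genes Serpina1b came nearest to the limit, with a DHS 21740 bp beyond its end. A DHS covered an annotated start of 3 of the 10 genes, Serpina6, Serpina3k and Serpina3n, against 49.5% of all protein-coding genes. At Serpina3m the nearest DHS ended 101 bp from the start. At Serpina1e it lay 2662 bp from the outermost annotated start, and farther from the RefSeq start.

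The genes without a DHS sat in 2 long stretches without a peak. Between chr12:104944627-105175311, 230685 bp that hold Serpina1b, Serpina1d, Serpina1a and Serpina1c, no list had a peak. Of the 50-base words in this stretch (50 bp is the read length), 51.7% occurred a single time in mm9, and 86.9% had a near copy, another word of the cluster with at most 5 mismatches. Stretches free of DHS this long were uncommon but not rare: 2049 of 51460 gaps between neighbouring regions were longer, and the median gap was 11.785 kb. A second stretch without a peak, chr12:105347049-105574621, measured 227573 bp and holds Serpina3c and 6 other protein-coding genes. There 90.0% of 50-base words were unique and 37.1% had a near copy, so the empty stretch around Serpina3c was less repeated than that of the Serpina1 genes.

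**Figure D1:**
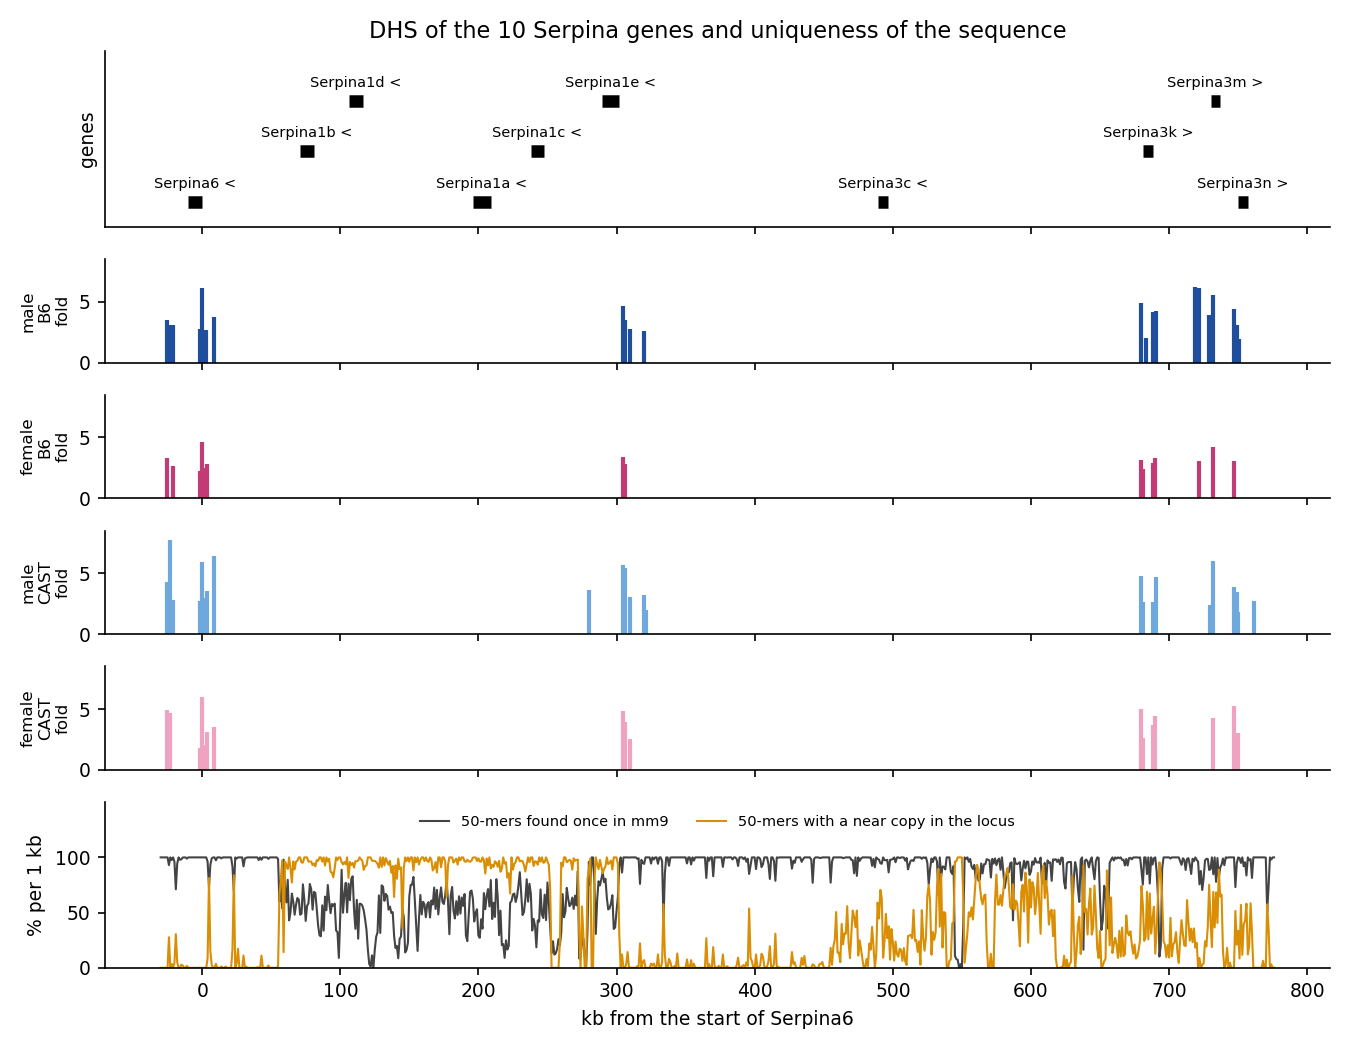
Positions of the 10 genes (arrows give the strand), the fold enrichment of the 28 DHS regions at their summits in each list, and the share of 50-base words per 1 kb that occurred a single time in mm9 or had a near copy in the cluster, by distance in kb from the start of Serpina6, with positive values toward Serpina3n. Only the 28 regions are drawn, and none lies over the 4 Serpina1 genes between Serpina6 and Serpina1e, where most 50-base words have a near copy.

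Within 500 bp of the start, taken from RefSeq where it gave one, the share of unique 50-base words was 49.7% for Serpina1d, 52.9% for Serpina1e, 55.7% for Serpina1a, 66.7% for Serpina1c and 68.8% for Serpina1b. It was 82.8% for Serpina3k, 89.4% for Serpina3m, 94.8% for Serpina3c, 97.9% for Serpina3n and 100% for Serpina6. At the outermost start of the mm9 annotation, which for Serpina1e and Serpina1a lies about 2 kb farther upstream, the share was 92.3% for Serpina1e, 80.5% for Serpina1a, 70.7% for Serpina1c and 53.7% for Serpina1d. By these starts, over all protein-coding genes, the median share was 100% and the lowest 5% of genes fell under 42.6%. The study kept uniquely aligned reads, so reads from words with an exact copy could not be placed. The part of this in the missing DHS was not tested. Reads were paired, and a pair can be placed by either end. The shares hold for mm9, and the CAST version of the genome was not analysed here.

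**Figure D2:**
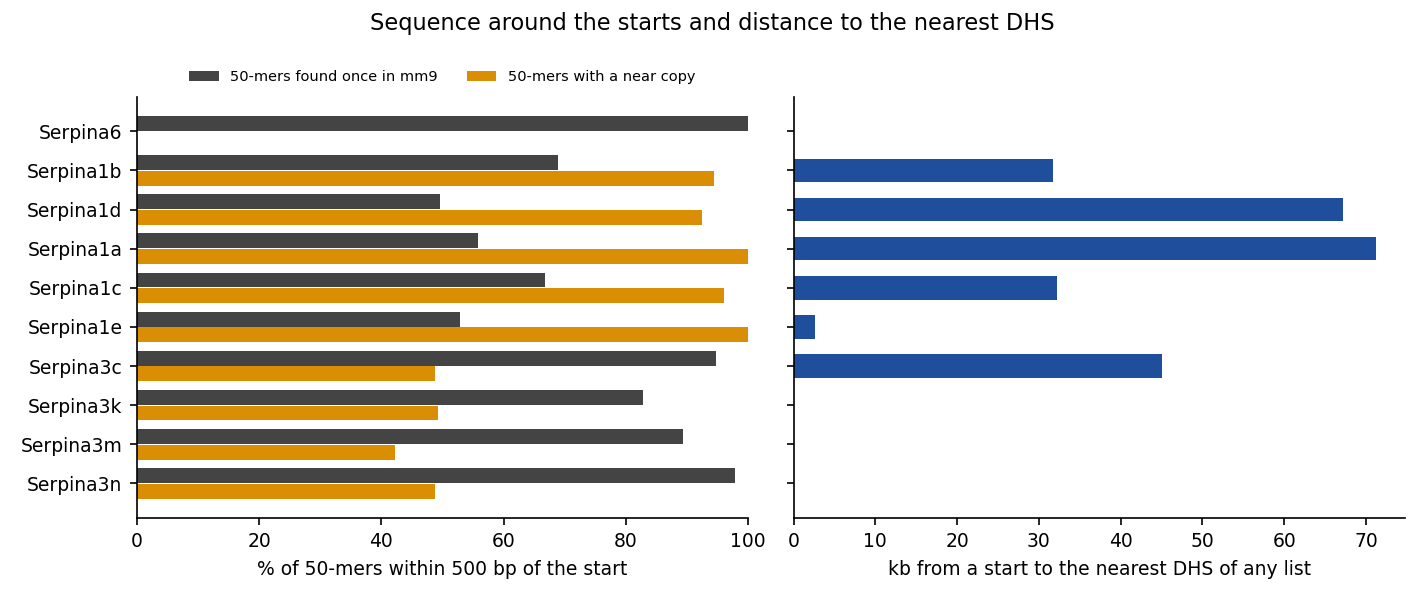
Left, the share of 50-base words within 500 bp of each gene's start (from RefSeq where it gave one) that occurred a single time in mm9 (grey) or had a near copy in the cluster (orange). Right, the distance in kb from the nearest annotated start, which for Serpina1a and Serpina1e can differ from the RefSeq start, to the nearest DHS of any list: the 4 Serpina1 genes without a DHS and Serpina3c lie 31742 to 71175 bp from it.

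Serpina6 had 8 regions, r1 to r8, the most of the 10 genes with Serpina3m. Its promoter DHS, r5, chr12:104895123-104895907, covered the start of the gene, with its summit 62 bp upstream. The fold enrichment of r5 was 6.16 in B6 males, 4.60 in B6 females, 5.92 in CAST males and 5.98 in CAST females. Its summit held 381, 155, 385 and 142 reads in the same order, the most of the 28 regions in each list. The 150 bases at its summit are shown because they hold motifs of liver factors, in capitals the C/EBP motif TTGCNNAA and then the FOXA motif TGTTTAC, on the minus strand of Serpina6:
r5, chr12:104895409-104895558: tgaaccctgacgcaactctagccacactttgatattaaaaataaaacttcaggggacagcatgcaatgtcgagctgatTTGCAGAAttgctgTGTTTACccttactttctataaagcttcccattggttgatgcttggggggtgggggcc
The promoter ranked at percentile 81.0 of fold enrichment in male B6 and between 75.2 and 77.6 in the other lists. The male over female log2 ratio of fold enrichment, taken relative to the median of all shared regions, was 0.02 in B6 (95% counting interval -0.25 to 0.31) and -0.27 in CAST (-0.54 to 0.03). Between the strains it was 0.13 in males and -0.13 in females, with intervals that include 0. These intervals are exact binomial intervals on the summit reads. They cover counting error only, and reads without molecular identifiers are not independent molecules.

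Of the other regions of the Serpina6 window, r4 lay in an intron of the gene and the rest flanked it. Region r4 was listed with a fold enrichment of 2.78, 2.28, 2.73 and 1.84 in B6 males, B6 females, CAST males and CAST females. Regions r6 and r7 lay 2079 and 3203 bp upstream of the start and were in all 4 lists at 2.01 to 3.54. Upstream at 8319 bp, r8 was listed at 3.75 in B6 males, 6.38 in CAST males and 3.54 in CAST females, and not in female B6. Male CAST was thus the highest list at r6, r7 and r8. On the other side, r1 covered the start of the neighbouring gene Serpina10, which encodes protein Z-dependent protease inhibitor, at 3.52, 3.31, 4.30 and 4.89 in the same order.

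Region r2, chr12:104871626-104872218, 2367 bp upstream of the Serpina10 start, had the largest ratio of fold enrichment between the strains among regions with a peak in both lists compared. Its fold enrichment was 7.70 in CAST males, 4.69 in CAST females and 3.11 in B6 males, and it was not in the female B6 list. Summit reads were 298 in CAST males against 103 in B6 males. The centred log2 ratio of B6 over CAST in males was -1.23 (95% counting interval -1.58 to -0.91), a 2.35-fold difference at percentile 0.67 of the shared regions. All its 50-base words were unique and none had a near copy. Its 150 bases at the male CAST summit, shown as the region with the largest centred ratio of fold enrichment of the 28, held none of the motifs searched; the strand is minus:
r2, chr12:104871946-104872095: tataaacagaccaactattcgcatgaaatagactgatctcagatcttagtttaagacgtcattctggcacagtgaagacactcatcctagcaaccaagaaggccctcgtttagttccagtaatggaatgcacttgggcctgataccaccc

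Serpina1e was the only alpha-1 antitrypsin gene of the 5 with a DHS within 20 kb, and its 6 regions, r9 to r14, lay outside the gene. The strongest, r10, chr12:105199847-105201040, lay 2885 bp upstream of the outermost annotated start. Its fold enrichment was 4.65 in B6 males, 3.40 in B6 females, 5.65 in CAST males and 4.80 in CAST females. Region r11, 4528 bp upstream, had 3.46, 2.85, 5.42 and 3.97 in the same order. In both regions male CAST was the highest list and female B6 the lowest. The summit of r10 is shown because all its words are unique and it holds a C/EBP motif (read on the opposite strand) and then the STAT5 motif TTCNNNGAA, in capitals, on the minus strand:
r10, chr12:105199995-105200144: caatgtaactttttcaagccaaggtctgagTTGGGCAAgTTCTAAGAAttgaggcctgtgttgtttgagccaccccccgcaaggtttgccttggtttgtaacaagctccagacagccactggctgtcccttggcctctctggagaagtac

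The rest of the Serpina1e window was weaker. Region r12 was at 2.75, 3.01 and 2.58 in B6 males, CAST males and CAST females, and absent from the female B6 list. Region r13, chr12:105215186-105215597, was a peak of males in both strains, at 2.63 in B6 and 3.17 in CAST, with no peak in females. With lists of equal size no region kept this pattern. It lay 12729 bp from the nearest start, that of Serpina11. Regions r9 and r14 were in the male CAST list alone, at 3.61 and 2.02, and 79.9% of the words of r9 had a near copy.

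Serpina3k had 5 regions, r15 to r19. The DHS over its start, r16, chr12:105576386-105576832, was weak: 2.39 in B6 females, 2.61 in CAST males and 2.64 in CAST females, with no peak in male B6. It was the least unique of the 28 regions, with 77.6% of its 50-base words found a single time. In 3 of the 4 lists the strongest in the window was r15, 1873 bp upstream, at 4.91 in B6 males, 3.16 in B6 females, 4.80 in CAST males and 4.96 in CAST females. Downstream of the coding sequence, r19, chr12:105584493-105586076, was the widest of the 28 regions (1584 bp) and had 4.22, 3.28, 4.71 and 4.43 in the same order. An intronic region, r17, was listed in male B6 alone at 2.05.

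Region r18, chr12:105583493-105583873, overlapped a coding exon near the 3′ end of Serpina3k. Its fold enrichment was 4.14 in B6 males, 2.90 in B6 females, 2.65 in CAST males and 3.71 in CAST females. By this measure male CAST was the lowest list, with a centred log2 ratio of male over female of -0.74 in CAST (-1.07 to -0.38) and of B6 over CAST of 0.72 in males (0.35 to 1.07). Summit reads, however, were 97, 44, 211 and 108, so male CAST had the most reads. Relative to the genome-wide background of each list and centred, the summit reads of r18 gave a log2 ratio of B6 over CAST of -1.17 in males, of opposite sign to the ratio of fold enrichment. For r19 the ratio of B6 over CAST was -0.08 in males and -0.19 in females by fold enrichment, and -1.99 and -1.75 by summit reads.

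The opposite signs went with the local background. Around r18 it was 1.48 times the genome-wide background in male B6 and 1.04 times in female B6, against 5.54 times in CAST males and 3.57 times in CAST females. At r19 it was 1.29, 1.0, 4.92 and 3.28 times in the same order. Both CAST lists stood above both B6 lists at each of the 2 regions. The 2 regions are close neighbours, so their local backgrounds may rest in part on the same reads. Relative to the median of all shared regions, the background of B6 was 3.76-fold lower than that of CAST at r18 in males and 3.29-fold lower in females, and 3.82-fold and 3.16-fold lower at r19. In males 13 of 29099 shared regions had a lower ratio than r18, and in females 8 of 18601. The female B6 background at r19 was at the genome-wide value, the least the peak caller uses, so its ratio may be limited by that floor. This comparison was chosen after its values were seen.

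Upstream of Serpina3k the gap between the strains was smaller. At r15 the background was 1.63, 1.20, 2.34 and 1.83 times the genome-wide value in B6 males, B6 females, CAST males and CAST females. At the start, r16, it was 1.19 times in B6 females, 2.75 times in CAST males and 2.02 times in CAST females. At Serpina3m and Serpina3n, r24 to r27, it was between 1.03 and 1.57 times in every list. Relative to the median of all shared regions, the log2 ratio of B6 over CAST in background was between -0.37 and -0.16 in males and between -0.35 and -0.18 in females at the regions r1 to r12 that had one. The background was thus higher in CAST at these regions of Serpina6 and Serpina1e as well, by less than at the 3′ end of Serpina3k. At r13, also in the Serpina1e window, the ratio in males went the other way, at 0.09. Of the words of r18 and r19, 98.4% and 99.9% were unique in mm9 and 34.6% and 20.5% had a near copy. CAST reads were aligned to a CAST version of mm9 built from known variants. The part of alignment in this background was not tested.

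**Figure D3:**
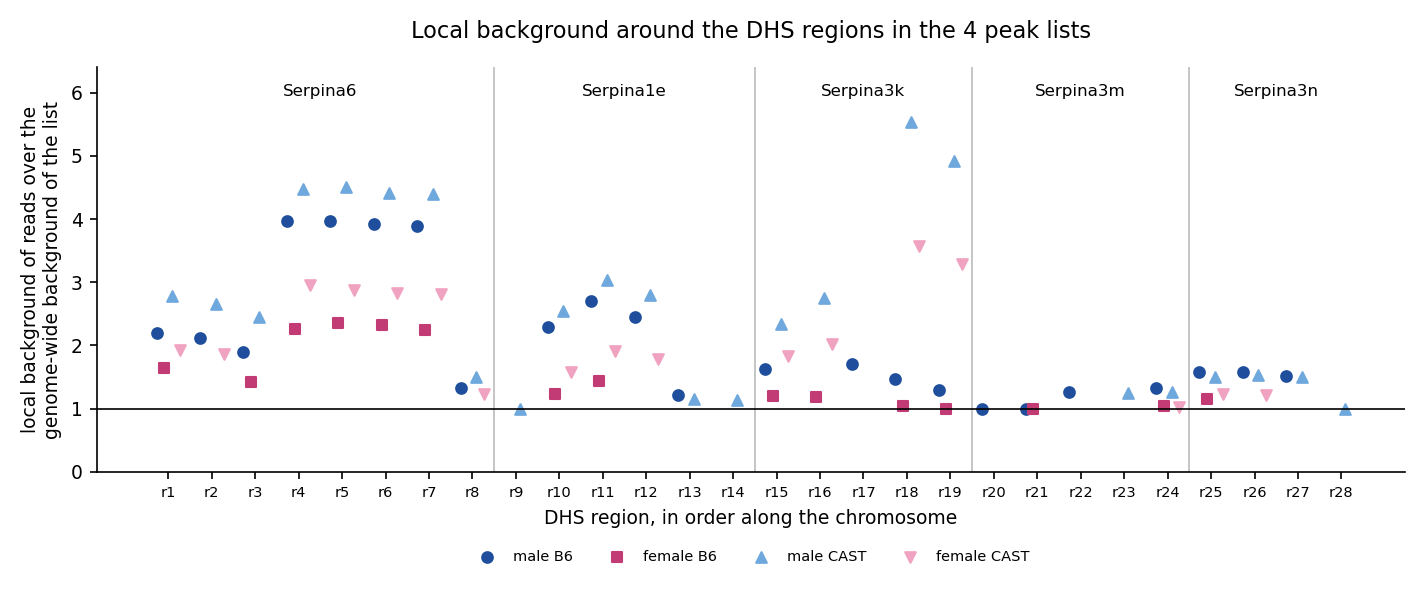
Local background of reads at each DHS region, as a multiple of the genome-wide background of its list (1, black line), in the 4 lists; regions are grouped by the nearest of the 10 genes. The CAST lists stand at 3.28 to 5.54 at r18 and r19 against 1.0 to 1.48 in B6, and r4 to r7 at Serpina6 are raised in all 4 lists, more in males.

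Serpina6 had a raised background of another pattern. At r4 to r7 it was 3.89 to 3.97 times the genome-wide value in male B6, 2.24 to 2.36 times in B6 females, 4.39 to 4.50 times in CAST males and 2.81 to 2.95 times in CAST females. These values lay at or above percentile 95.2 of each list. As close neighbours, r4 to r7 may also share reads in their local backgrounds. Both male lists were above both female lists. Over all shared regions the background relative to the genome-wide value was also higher in males, by a median log2 ratio of 0.31 in B6 and 0.25 in CAST. Relative to that median, r4 to r7 were at 0.44 to 0.50 in B6 and 0.35 to 0.39 in CAST, and r10 and r11 at Serpina1e at 0.57 to 0.60 and 0.42 to 0.44. A high local background lowers the fold enrichment of a peak, and the summit reads of r5 in B6 males were 24.8 times the genome-wide background while its fold enrichment was 6.16.

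Serpina3m had 8 regions within 20 kb, 5 of which also fell within 20 kb of Serpina3n. No DHS covered its start. Upstream of it lay 3 regions listed in B6 alone. Region r20, chr12:105613463-105614009, 11559 bp upstream, was in male B6 alone with a fold enrichment of 6.18 and 100 summit reads. Region r21, chr12:105616516-105617016, 8418 bp upstream, was in male B6 at 6.11 and in female B6 at 3.08, and in neither CAST list. Region r22, 1267 bp upstream, was in male B6 alone at 3.94. The summits of r20 and r21 are shown, on the plus strand, because in male B6 their fold over the local background was near that of the Serpina6 promoter (6.16) and they had no peak in either CAST list. Their 100 and 99 summit reads were 6.51 and 6.45 times the genome-wide background, against 24.8 times at that promoter. No letters are in capitals because no motif searched fell in these bases:
r20, chr12:105613740-105613889: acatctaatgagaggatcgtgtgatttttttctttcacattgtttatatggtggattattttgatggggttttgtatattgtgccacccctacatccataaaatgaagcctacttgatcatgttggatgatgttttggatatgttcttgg
r21, chr12:105616881-105617030: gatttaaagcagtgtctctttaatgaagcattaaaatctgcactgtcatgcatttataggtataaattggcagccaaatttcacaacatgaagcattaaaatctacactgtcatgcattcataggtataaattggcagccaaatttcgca
The r21 window matched itself at a shift of 65 bases in 65 of 85 positions (76.5%), against at most 42.7% in the windows of the other regions, so it holds a short tandem copy. Near copies made up 49.7% of the words of r20, 10.4% of r21 and 86.6% of r22.

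Region r24, in an intron of Serpina3m 1509 bp downstream of the start, was in all 4 lists. Its fold enrichment was 5.53 in B6 males, 4.25 in B6 females, 6.02 in CAST males and 4.25 in CAST females. Both male lists were above both female lists, but the female lists were lower at most regions of the genome as well, and the centred male over female log2 ratio was -0.02 in B6 (-0.46 to 0.45) and 0.25 in CAST (-0.27 to 0.85). Region r23, which ended upstream of the start, was in male CAST alone at 2.40.

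Serpina3n had a DHS over its start, r26, chr12:105644575-105645191. It was at 3.06 in B6 males, 3.47 in CAST males and 3.0 in CAST females, and was not in the female B6 list. The nearest DHS in all 4 lists, r25, 2511 bp upstream, had 4.41 in B6 males, 3.09 in B6 females, 3.90 in CAST males and 5.21 in CAST females. In CAST the female list was thus higher, with a centred log2 ratio of -0.67 (-1.17 to -0.15), while in B6 the ratio was 0.11 (-0.36 to 0.63). Intronic region r27, 893 bp downstream of the start, was in both male lists at 1.93 and 1.83 and in neither female list. Those are among the weakest peaks of their lists, at percentiles 2.00 and 0.518. Region r28, downstream, was in male CAST alone at 2.75.

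**Figure D4:**
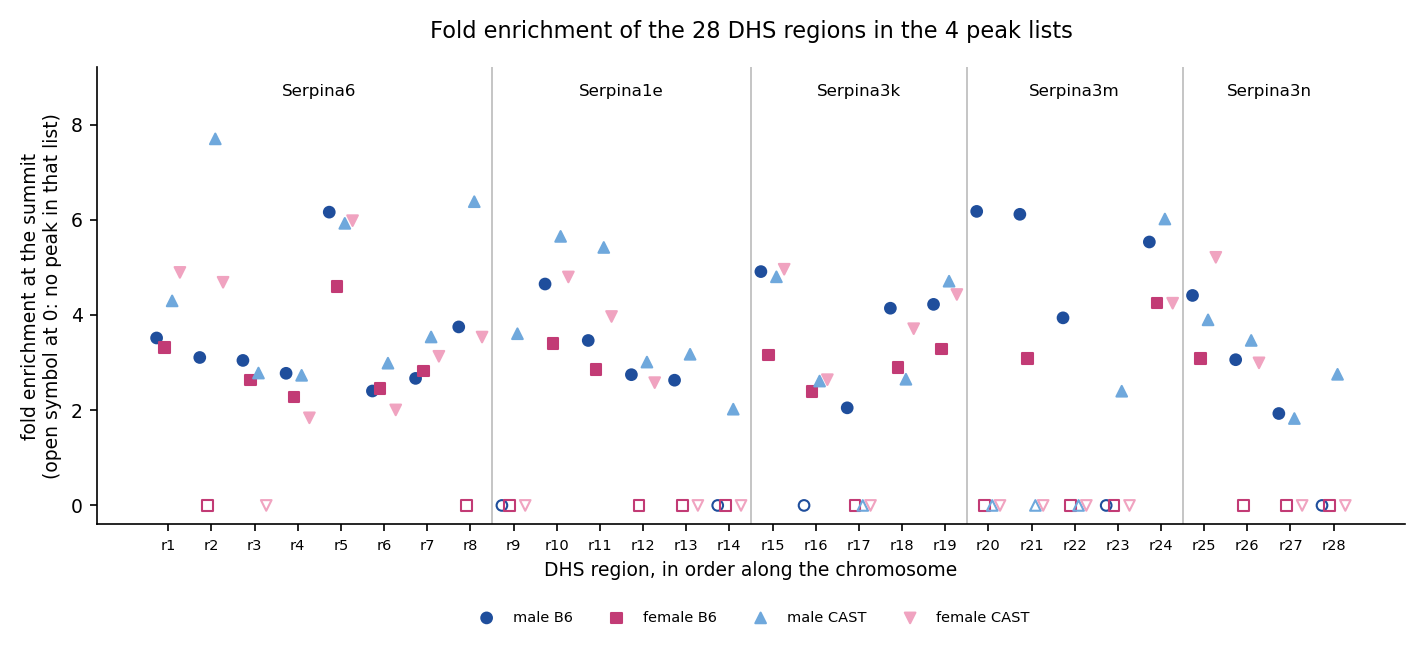
Fold enrichment of each of the 28 regions in the 4 lists (open symbols at 0 mark lists without a peak), grouped by the nearest of the 10 genes. Male CAST reaches 7.70 at r2, and male B6 reaches 6.18 and 6.11 at r20 and r21, where the CAST lists have no peak.

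Some of these regions are copies of each other. Every pair of the 28 was aligned on both strands (378 pairs), and 7 pairs aligned past a score of 40. Region r15 upstream of Serpina3k and r22 upstream of Serpina3m were 90.2% identical over 327 bases. Region r15 was in all 4 lists, at 3.16 to 4.96, and r22 in male B6 alone at 3.94. The intronic regions r17 of Serpina3k and r24 of Serpina3m were 89.8% identical over 236 bases, and the first was in male B6 alone at 2.05 and the second in all 4 lists at 4.25 to 6.02. Copies in neighbouring genes thus differed in how many lists held them. However, r17 was a weak peak, at percentile 4.80 of fold enrichment in male B6. Of the words of r22, 86.6% had a near copy, and the part of read placement in these differences was not tested.

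The start regions formed a further set. The Serpina3k start region r16 was 91.5% identical to r23 at Serpina3m over 189 bases and 82.6% identical to the Serpina3n start region r26 over 420 bases. Regions r23 and r26 were 81.6% identical over 206 bases. Their fold enrichments were 2.39 to 2.64 for r16, 2.40 for r23 and 3.0 to 3.47 for r26. The summits of the intronic pair are printed to show the likeness on the plus strand; no letters are in capitals, since no motif searched was found:
r17, chr12:105578226-105578375: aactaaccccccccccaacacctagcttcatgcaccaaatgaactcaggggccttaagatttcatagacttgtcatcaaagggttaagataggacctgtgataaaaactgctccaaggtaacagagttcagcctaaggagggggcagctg
r24, chr12:105626808-105626957: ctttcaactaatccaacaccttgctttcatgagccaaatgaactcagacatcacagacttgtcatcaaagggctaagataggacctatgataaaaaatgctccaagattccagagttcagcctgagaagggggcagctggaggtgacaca

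Across the 28 regions, 23 were in the male B6 list, 15 in B6 females, 24 in CAST males and 17 in CAST females. In all 4 lists there were 12 (42.9%), against 35.6% of all 51482 regions. A single list held 7 (25.0%, against 35.2%), 4 of them male CAST (14.3%, against 15.2%) and 3 male B6 (10.7%, against 14.2%). Serpina6 had the most shared regions, 5 of its 8 in all 4 lists, and no region in a single list. Of these shared regions, r4 and r6 were among the weakest peaks of female CAST, at percentiles 0.117 and 0.213 of fold enrichment.

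Presence by sex was near or under that of the genome. In B6, 9 of 24 regions were in the male list and not in the female list (37.5%, against 36.4% of all regions in either list), and 1 was in the female list alone (4.17%, against 5.13%). That region was r16 at the Serpina3k start. In CAST, 7 of 24 were in the male list and not in the female list (29.2%, against 40.3%), and 0 were in the female list alone (against 3.90%). Male lists had more peaks genome-wide, so the male excess is read against those shares. The B6 count of 9 became 16 with stricter peaks, 4 with a window of 5 kb and 5 among regions with under 10% near copies. The CAST count of 7 became 2 with lists of equal size and 3 with a window of 5 kb. No genome-wide share is given for counts of presence under the alternative settings, so they cannot be read against the shares above. Stricter peaks, for example, kept 20732 peaks in male B6 and 11137 in female B6 genome-wide. Common to the males of both strains and missing in females were 2 regions (7.14%, against 9.38%), r13 near Serpina1e and r27 in Serpina3n. Their summits held 51 and 54 reads at r13 and 46 and 40 reads at r27 in B6 and CAST males. With lists of equal size the count was 0, with depth-scaled peaks or a window of 5 kb 1, and with stricter peaks 6. Common to females and missing in males were 0 (against 0.0622%).

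Presence by strain was likewise near or under it. In males, 4 of 28 regions were in B6 and not in CAST (14.3%, against 19.1%), namely r17, r20, r21 and r22. Among regions with under 10% near copies the count was 0. The reverse held for 5 (17.9%, against 20.9%). In females, 2 of 19 were in B6 and not in CAST (10.5%, against 22.6%) and 4 in CAST and not in B6 (21.1%, against 18.3%). Region r21 was the only one of the 28 found in B6 of both sexes and missing in CAST (3.57%, against 3.32%), a count of 0 with a 50% overlap, stricter peaks, a window of 5 kb or regions with under 10% near copies, and 0 were found in CAST of both sexes and missing in B6 (against 3.62%). The 4 regions of male B6 lay at Serpina3k and upstream of Serpina3m.

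For regions present in both lists, a ratio of fold enrichment was called when it passed 1.5-fold after centring on the median of all shared regions. In B6, 1 of 14 was higher in males (7.14%, against 2.62%) and 0 were higher in females (against 2.60%). This was r21, the B6 region upstream of Serpina3m, at 0.59 (0.08 to 1.15), which lies at the threshold. In CAST, 1 of 17 was higher in males (5.88%, against 3.31%), r8 upstream of Serpina6 at 0.60 (0.10 to 1.19). Higher in females were 2 of 17 (11.8%, against 2.56%), r18 at the end of Serpina3k at -0.74 and r25 upstream of Serpina3n at -0.67. By summit reads over the genome-wide background the balance turned: 5 of 17 were higher in males (29.4%, against 4.24%), r2, r4, r6, r8 and r11, and 1 in females (5.88%, against 6.92%), r25, with r18 at -0.36. Without centring 2 were higher in males (11.8%, against 12.5%) and 0 in females (against 0.395%). In B6, summit reads gave 0 in either direction (against 3.41% and 8.31%), and no centring gave 2 higher in males (14.3%, against 24.3%) and 0 in females (against 0.0423%). The called regions of the sex comparison were different ones in B6 and CAST. Region r21 had no CAST peak, r8 had no female B6 peak, and the B6 ratios of r18 and r25 were 0.12 and 0.11, with intervals that include 0. The difference between the strains was not tested.

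Between the strains in males, 1 of 19 was higher in B6 (5.26%, against 4.49%), r18, and 2 were higher in CAST (10.5%, against 6.68%), r2 at -1.23 and r8 at -0.69 (-1.11 to -0.29). By summit reads over the genome-wide background, r18 turned to -1.17, 0 were higher in B6 (against 7.92%) and 5 in CAST (26.3%, against 11.6%), r2, r8, r11, r18 and r19. Without centring 1 was higher in B6 (5.26%, against 3.17%) and 3 in CAST (15.8%, against 8.81%). In females, 0 of 13 passed in either direction (against 3.42% higher in B6 and 4.97% higher in CAST). By summit reads, 3 were higher in female CAST (23.1%, against 8.67%), r15, r18 and r19, and 0 in female B6 (against 6.63%). Without centring 2 were higher in female CAST (15.4%, against 15%) and 0 in female B6 (against 0.823%). The medians over the regions were -0.03 for male over female in B6 (n = 14), -0.04 in CAST (n = 17), -0.08 for B6 over CAST in males (n = 19) and -0.13 in females (n = 13), where the centring puts the median of all shared regions at 0. By summit reads they were 0.23, 0.26, -0.38 and -0.51 in the same order, with the sign of both sex medians turned. By fold enrichment the regions higher in male CAST lay on either side of Serpina6, and by summit reads also at Serpina1e and Serpina3k.

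**Figure D5:**
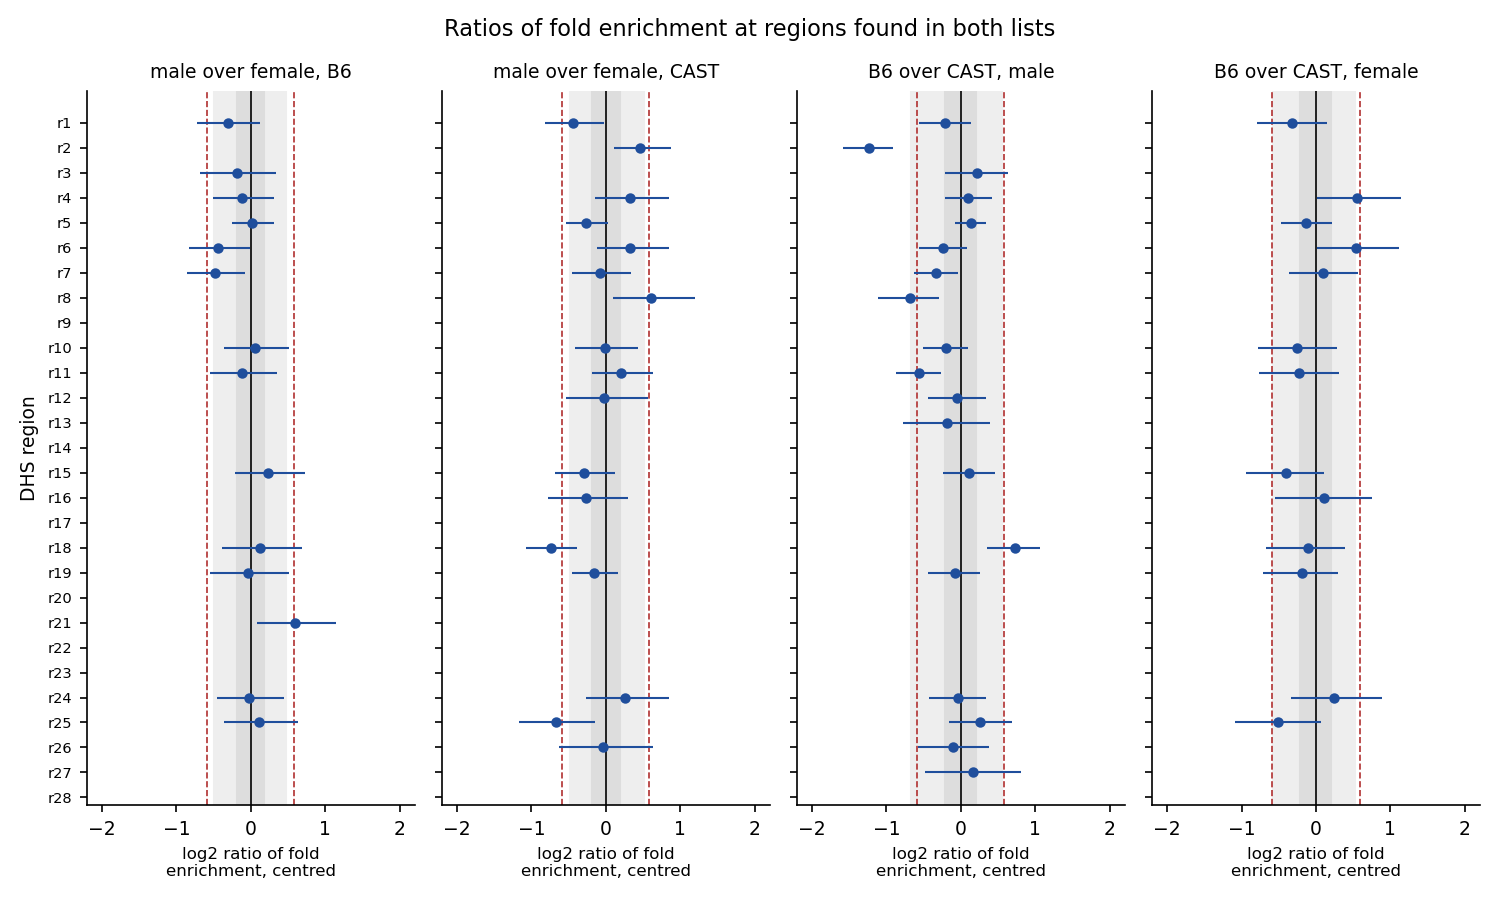
Centred log2 ratio of fold enrichment (points) with its 95% counting interval (lines) at each region found in both lists compared, in 4 comparisons; dashed lines mark 1.5-fold, and grey bands hold the middle 50% and 90% of all shared regions. Most of the regions lie within the wider band, with r2 in males the farthest from 0, at -1.23.

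The shared regions were narrower than those of the genome in each list. For the 12 regions in all 4 lists the median width was 622 bp in B6 males, 480.5 bp in B6 females, 649.5 bp in CAST males and 563.5 bp in CAST females, against 803, 646, 788 and 599 bp for all such regions. For the 12 regions in all 4 lists the summits of the lists spread over a median of 109.5 bp, against 91 bp for 18309 such regions genome-wide. The summits fell within 50 bp of each other in 2 of 12 (16.7%, against 22.7%), r5 at the Serpina6 promoter, 37 bp, and r10 upstream of Serpina1e, 48 bp. The widest spread, 384 bp, was at r19. Their median fold enrichment was 4.18 in B6 males, 3.13 in B6 females, 4.50 in CAST males and 4.34 in CAST females, against 5.35, 3.88, 5.80 and 4.66 for all regions in 4 lists.

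Motifs were searched on both strands in the 300 bases around each summit and in the promoters, 250 bases before to 50 after the start. Promoters were taken from RefSeq on the build GRCm38.p6 and placed in mm9 by exact match for 7 genes, and from mm9 at the annotated start for Serpina3k, Serpina3m and Serpina6. The HNF1 core GTTAAT was in 6 of the 10 promoters, those of the 5 Serpina1 genes and Serpina3c, against 7.10% of 32851 promoters. These 5 Serpina1 copies are not independent of each other. The C/EBP motif TTGCNNAA was in 5 of 10, Serpina6, Serpina1b, Serpina1d, Serpina1a and Serpina1e, against 10.8%. The full HNF1 motif GTTAATNAT (0.801% of promoters), the HNF4 motif CAAAGTCCA (0.475%) and the STAT5 motif (8.30%) were in none, and the FOXA motif was in Serpina6 alone (3.65%). The HNF1 core is part of the full motif, so the searches overlap.

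In the 28 regions the C/EBP motif was in 8, against 17.2% of all regions, and the STAT5 motif in 5, against 10.2%. The HNF1 core was in 3, against 10.4%, and FOXA in 2, against 6.59%. Full HNF1 and HNF4 motifs were in 0, against 2.03% and 1.67%. Among the 5 promoters with a C/EBP motif, that of Serpina6 lay within a DHS. A match is a run of letters and does not show binding.

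Other serpin genes and neighbours were set beside these. Of 17 annotated neighbours, 4 had no region within 20 kb (Serpina3f, Serpina3g, Serpina3h and Serpina3i) and 4 had a region over a start: Serpina10, Serpina11, Ppp4r4 and Dicer1. The start of Serpina11, next to Serpina1e, had a fold enrichment of 8.23 in B6 males, 6.78 in B6 females, 9.16 in CAST males and 9.81 in CAST females, in each list above the highest of the 28 regions. Of 6 liver serpins on other chromosomes, 5 had a region over a start in at least 1 list: Serpinc1 (antithrombin), Serpind1 (heparin cofactor II), Serpinf1, Serpinf2 (alpha-2 antiplasmin) and Serping1 (C1 inhibitor). Serpina7, thyroxine-binding globulin, had no region in any list.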

How the data were processed

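Per the labels and the study's methods, nuclei were prepared in batches that each held several groups, 5 libraries per group were made and 1 was excluded by the authors, and paired 50 bp reads were aligned with Bowtie2, keeping uniquely aligned pairs. B6 reads were aligned to mm9 and CAST reads to a CAST version of mm9, whose coordinates were converted back. The authors pooled the 4 libraries of a group, called peaks with MACS2 and removed blacklisted regions and peaks of duplicated reads.

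The deposited fold enrichment is a linear ratio of summit reads plus 1 over local background plus 1. The deposited −log10 p-value and −log10 q-value give the peak against that background, at a q threshold of 0.05. The deposited score is 10 times the −log10 q-value, cut to whole numbers, and was not used. Summit reads and background were solved from the fold and the −log10 p-value, and summit reads were within 0.02 of whole numbers for 99.9% of peaks in the list with the lowest share.

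Peaks sharing 1 bp were joined. Genes are those of the GENCODE annotation of mm9, and the limit of 20 kb runs from the gene's ends. Log2 ratios were centred on the median of all shared regions, whose uncentred values were 0.40 and 0.25 for male over female in B6 and CAST and -0.08 and -0.25 for B6 over CAST in males and females, and were called past 1.5-fold. All 10 genes were named, each with the region over its start and the region of highest fold enrichment in its window, as were regions found in 1 sex in both strains or in 1 strain in both sexes and those past 1.5-fold. Other regions named were chosen after their values were seen. Uniqueness was counted over all 50-base words of mm9 on both strands. No file held the protein sequences, so identity was computed from coding sequences. No columns of other samples were found. The sequences around the Serpina3 starts are not reported here.

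Computations used Python 3.11.15 with numpy 2.4.6, pandas 2.3.3, scipy 1.17.1, numba 0.67.0, biopython 1.88 and pysam 0.24.0, and were tested on simulated data. The alternatives were stricter peaks, a 50% overlap, lists of equal size, depth-scaled peaks, a window of 5 kb, no centring, summit reads over the genome-wide background, a 2-fold threshold and regions with few near copies. The members and lists were chosen with earlier results of these data known.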

Additional observations from a re-analysis of the deposited data

How the results depend on the processing

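No paired analysis was possible because the libraries of a group had been pooled into 1 list, which also meant that leaving out a replicate could not be done. Depth differed between the lists, with the lowest background in female CAST, and its part in the missing peaks was not tested. Of 210 alternatives computed, 140 were kept, 69 moved and 1 reversed. Kept means a count equal to or within 1.5-fold of the main one, or a median or ratio inside the main interval. Reversal was scored for single named regions only, so medians that changed sign count as kept or moved. The causes were not tested beyond what the construction shows. With stricter peaks (−log10 q of at least 15.7) the regions were 3 in female B6, 9 in female CAST and 2 in all 4 lists. Then 16 were in male B6 and not female B6, 0 the reverse, 6 in both male lists alone, 1 in male CAST and not male B6, 1 in female B6 and not female CAST, 7 the reverse, and 0 in both B6 lists alone; 0 were past 1.5-fold higher in males in either strain, and the median summit spread was 49 bp. Stricter peaks thus left 3 of 15 regions in female B6 and 9 of 17 in female CAST. A 50% overlap gave 2 in female B6 and not male B6, 1 in female CAST and not male CAST, 0 in both B6 lists alone, 0 past 1.5-fold higher in male than female B6, and 1 higher in male CAST than male B6. Lists of equal size gave 2 in male CAST and not female CAST, 2 in male CAST and not male B6, and 0 in both male lists alone, and depth-scaled peaks 1 in both male lists alone. A window of 5 kb left 15 regions in male B6, 4 in male B6 and not female B6, 3 in male CAST and not female CAST, 2 in male B6 and not male CAST, 3 the reverse, 0 in female B6 and not female CAST, 1 the reverse, 1 in both male lists alone and 0 in both B6 lists alone, with 0 past 1.5-fold higher in males in B6, 0 in CAST and 0 higher in male CAST than male B6. Regions with under 10% near copies, an alternative chosen after seeing the data, numbered 14 and 9 in male and female B6 and 11 in female CAST, with 5 in male B6 and not female B6, 0 the reverse, 0 in male B6 and not male CAST, 2 the reverse, 1 in female B6 and not female CAST and 0 in both B6 lists alone. Among them 0 were past 1.5-fold higher in male B6 than female B6, 1 higher in female than male CAST and 0 higher in male B6 than male CAST.

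Without centring, 2 were higher in male B6 and 2 in male CAST than in females, 0 higher in female CAST and 2 higher in female CAST than female B6, with medians of 0.37 for male over female B6 and -0.38 for B6 over CAST in females. At 2-fold, 0 were higher in males of either strain, 0 in female CAST, 0 in male B6 than male CAST and 1, r2, the reverse. With summit reads over the genome-wide background, 0 were higher in male than female B6, 5 in male than female CAST, 1 in female than male CAST, 0 in male B6 than male CAST, 5 the reverse and 3 in female CAST than female B6. The medians were then 0.23 and 0.26 for male over female in B6 and CAST, and -0.38 and -0.51 for B6 over CAST in males and females. Of the named regions, r18 reversed between the strains in males, to -1.17, and moved to -0.36 for male over female in CAST, and r2 moved to -1.58. Region r19, not past 1.5-fold by fold enrichment, came to -1.99 between the strains in males and -1.75 in females.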
